A study of Mus musculus with 6 samples.

Results

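Glycolysis turns glucose into pyruvate and lactate, and many of its enzymes belong, with genes of vessel growth, matrix and mitophagy, to the targets of the hypoxia-inducible factors (HIF). The genes described here are 36 mouse genes of these 2 processes, 20 of glucose and lactate handling and 16 of the hypoxia response, chosen by name from the 17025 genes of an RNA-seq table. All 36 were listed in the table. The libraries came from integrin α6-positive epidermal progenitor cells that had been sorted by FACS from newborn skin at P0. The 3 libraries labelled cKO had the genotype K14Cre,Ash2lF/F and the 3 labelled control had K14Cre,Ash2lF/+. Both groups thus carried the K14Cre transgene and a floxed Ash2l allele, and the labels list no treatment. Ash2l is a core subunit of the complexes that methylate histone H3 at lysine 4, and the comparison asks what its conditional deletion in the epidermis does to these cells. The keratin 14 promoter drives Cre in basal keratinocytes and their descendants, which limits the model to that lineage. The labels do not say how many animals went into a library, so p-values and intervals measure the spread between these libraries. In bulk RNA, fewer cells of a type and less RNA per cell cannot be told apart.

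In normal oxygen, prolyl hydroxylases mark the HIF alpha subunits for destruction by the von Hippel-Lindau ligase. In low oxygen the subunits persist, pair with Arnt and bind short DNA sites near genes for glucose uptake, glycolysis, lactate export, vessel growth and mitophagy. The epidermis has no vessels of its own and is known as a mildly hypoxic tissue, and basal keratinocytes are known for high glucose use through the carrier Slc2a1.

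The libraries held 31578875 to 36027550 fragments. Ash2l itself went against the labels, with 30.9, 29.5 and 22.9 FPKM in the libraries labelled cKO 1, 2 and 3, against 12.4, 18.1 and 15.9 FPKM in those labelled control 1, 2 and 3. FPKM are fragment numbers corrected for gene length and library size. Whether the labels match the genotypes was not tested, so every direction below rests on the labels. Differences below are cKO minus control in log2(FPKM + 1). The added 1 makes those of weakly expressed genes smaller than their true change. The Ash2l difference was 0.81 (SE 0.19, adjusted p = 0.0240, limma, Benjamini-Hochberg over the 11603 genes that averaged 1 FPKM or more), and the exact two-sided permutation test gave p = 0.1, the smallest that 3 against 3 allows. The call was lost without cKO 1 (adjusted p = 0.0829, limma), cKO 2 (0.0810), control 1 (0.0560) or control 3 (0.0665). Basal keratinocyte markers (Krt5, Krt14 and the like) summed to 8002 to 10450 FPKM in cKO libraries and 4878 to 8503 FPKM in control libraries, and Krt5 and Krt14 were high in every library. Their sum was carried by keratins: Itga6, the integrin of the sort, had 53.6, 53.0 and 19.7 FPKM in cKO 1, 2 and 3, against 162, 78.8 and 72.1 FPKM in control 1, 2 and 3 (adjusted p = 0.0710, limma), and its partner Itgb4 was called lower (difference -1.70, adjusted p = 0.0437, limma). The basal keratin Krt15 was called higher (difference 2.23, adjusted p = 0.00215, limma). It had 2289, 2265 and 3681 FPKM in cKO 1, 2 and 3, against 754, 422 and 574 FPKM in control 1, 2 and 3. Krt5 (difference 0.505, adjusted p = 0.184, limma) and Krt14 (-0.076, 0.853) were not called. Spinous markers (Krt1, Krt10 and the like) summed to 34560, 35330 and 67860 FPKM in cKO 1, 2 and 3, against 4472 to 6317 FPKM in control libraries. Melanocyte markers summed to 168.5 to 361 FPKM in cKO libraries and 2806 to 3214 FPKM in control libraries, and each of the 8 was lower in every cKO library than in any control library. Stress keratins summed to 1906 to 2490 FPKM in cKO and 3615 to 4811 FPKM in control libraries, with 3 of 4 called lower (Krt6a, Krt6b and Krt16). Fibroblast markers lay at 146 to 437 FPKM in cKO and 95.1 to 336 FPKM in control libraries, Schwann cell markers at 7.78 to 19.7 and 76.6 to 129 FPKM, and endothelial markers at 1.18 to 6.70 and 3.80 to 5.72 FPKM. Erythroid markers summed to 4.50 to 26.2 FPKM in cKO and 2.31 to 28.2 FPKM in control libraries, muscle markers to at most 4.52 FPKM in any library and immune markers to at most 3.32 FPKM. The part of these cell types and keratinocyte states in the results below was not tested. The 4 Y-linked genes looked at (Ddx3y, Eif2s3y, Kdm5d and Uty) summed to 16.3 to 44.8 FPKM in cKO libraries, and to 0.0231 FPKM in control 1 against 29.3 and 36.7 FPKM in control 2 and 3.

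HIF binds the core letters ACGTG or GCGTG, which read CACGT or CACGC on the other strand. RefSeq (GRCm38.p6) gave start-site windows for 33 of the 36 genes, and the 250 bases before each start were searched on both strands. A core stood in 39 of the 51 windows of these genes (76.5%), against 38.6% of the 32851 windows of all genes, and 30 of the 33 genes (90.9%) had a core in some window, against 41.5% of all genes. The 32851 windows belonged to 27025 genes, so the members had more windows per gene in which a core could stand. Those 27025 genes were not limited to the genes tested here. The members were chosen by name, many as known HIF targets, so a higher share could come from that choice and is no result of these libraries. Some windows of the same gene overlapped and were counted separately. A match is a stretch of letters and no binding was measured, and base composition was not taken into account. The unmatched genes were Ndrg1, Bnip3l (both called lower) and Epas1. Windows are given for 5 matched genes that were picked by their expression values: Pfkp was called lower, P4ha2 and Bnip3 had large differences that missed the threshold, and Hk2 and Adm were high in a single control library. A link between core matches and expression was not tested. They run 5′ to 3′ on the strand of the gene and end at the base before the start site, with core matches in capitals. They are of Pfkp at chr13:6648772-6649021 (minus strand), P4ha2 at chr11:54100674-54100923 (plus), Bnip3 at chr7:138909507-138909756 (minus), Hk2 at chr6:82774455-82774704 (minus) and Adm at chr7:110627407-110627656 (plus).
Pfkp: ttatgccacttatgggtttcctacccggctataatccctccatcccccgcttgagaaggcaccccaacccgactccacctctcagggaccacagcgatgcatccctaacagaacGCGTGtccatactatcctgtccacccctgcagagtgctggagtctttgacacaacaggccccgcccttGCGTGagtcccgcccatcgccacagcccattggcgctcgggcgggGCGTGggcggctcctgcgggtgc
P4ha2: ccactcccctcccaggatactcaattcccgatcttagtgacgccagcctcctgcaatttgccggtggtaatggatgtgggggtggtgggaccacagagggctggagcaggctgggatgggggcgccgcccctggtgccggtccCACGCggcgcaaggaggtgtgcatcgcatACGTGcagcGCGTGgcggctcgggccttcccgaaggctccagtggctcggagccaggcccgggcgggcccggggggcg
Bnip3: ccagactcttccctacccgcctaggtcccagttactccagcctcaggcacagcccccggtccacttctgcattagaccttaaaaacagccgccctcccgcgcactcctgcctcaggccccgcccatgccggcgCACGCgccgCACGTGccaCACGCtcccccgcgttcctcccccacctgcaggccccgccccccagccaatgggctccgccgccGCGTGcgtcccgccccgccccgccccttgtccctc
Hk2: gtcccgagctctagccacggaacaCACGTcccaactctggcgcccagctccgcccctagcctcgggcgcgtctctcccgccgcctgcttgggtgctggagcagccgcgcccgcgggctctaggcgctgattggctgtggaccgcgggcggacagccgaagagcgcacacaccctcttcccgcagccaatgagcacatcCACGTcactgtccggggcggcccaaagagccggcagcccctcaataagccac
Adm: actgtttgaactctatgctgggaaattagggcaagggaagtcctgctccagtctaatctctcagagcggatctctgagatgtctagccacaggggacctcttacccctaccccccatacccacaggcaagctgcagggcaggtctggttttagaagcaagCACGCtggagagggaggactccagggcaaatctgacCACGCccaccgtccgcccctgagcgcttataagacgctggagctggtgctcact
Pfkp and P4ha2 had 3 matches each, Hk2 and Adm 2 each, and Bnip3 5, since the palindrome CACGTG matches on both strands and counts as 2. Windows with 4 or more matches made up 2.58% of all windows.

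Of the 36 genes, 35 passed the expression filter. Adm, with a mean of 0.843 FPKM in the cKO group against 19.2 FPKM in the control group, passed it only through the control group. In the libraries labelled cKO, 3 of the 35 were called lower, namely Ndrg1, Pfkp and Bnip3l, and 0 were called higher by limma or by limma-voom on recovered fragments. Of all genes tested 13.6% were called lower and 5.87% higher, so neither count stood above the background. At an unadjusted p under 0.05 7 of the 35 were lower, against 24.6% of all genes, and 1 was higher, the HIF subunit Epas1, against 10.1% of all genes. The cKO value was below all control values in 7 of the 35, against 30.9% of all genes, and above all of them in 1, against 12.0%. The difference was below 0 in 29 of the 35, against 63.9% of all genes, and its median was -0.51, against -0.17 over all genes. With median-of-ratios scaling the median of all genes moved to 0.01 and that of the members to -0.31, the differences of Slc2a1, Eno1 and Ldha turned above 0, and Ndrg1 was the 1 member called lower, where 9.08% of all genes were lower and 8.60% higher.

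**Figure D1:**
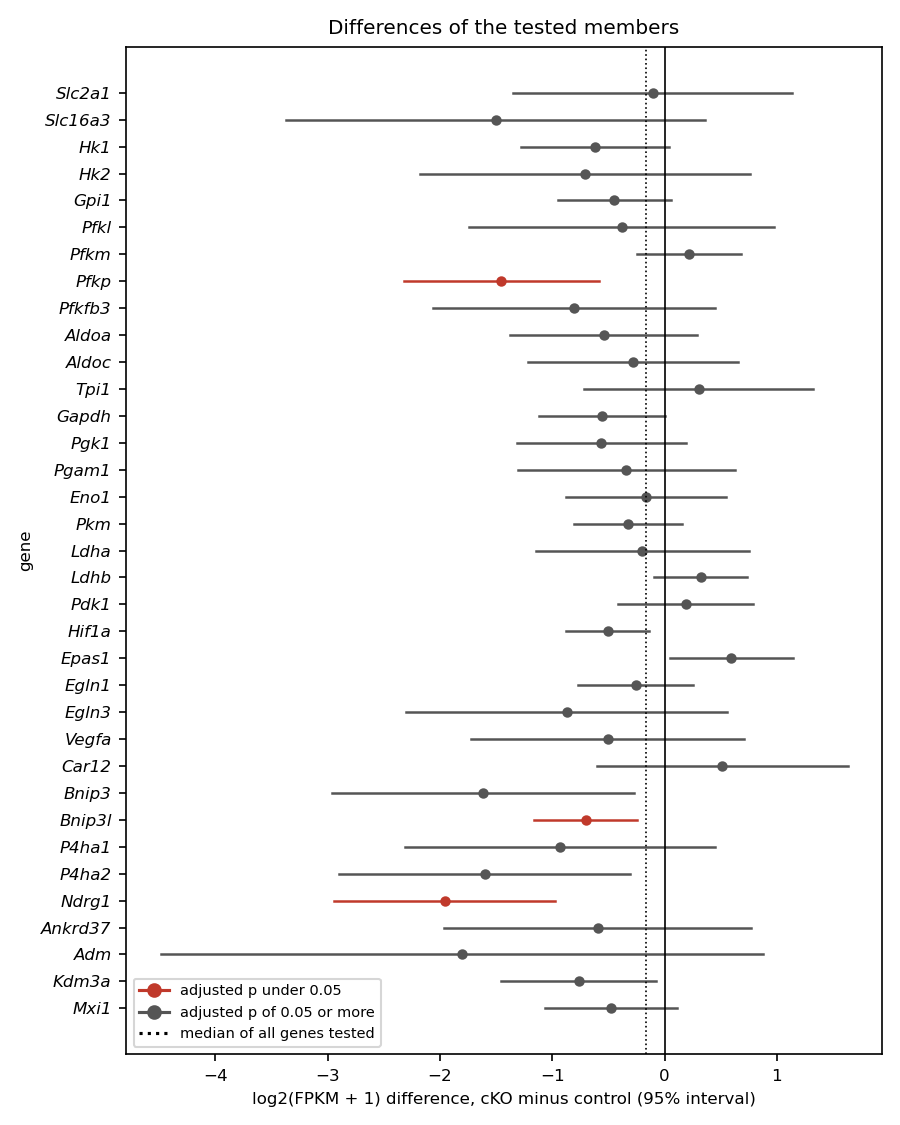
Difference (cKO minus control, log2(FPKM + 1)) of each of the 35 tested genes with its 95% interval from limma, in order of role; the dotted line is the median of all genes tested, -0.17. Points of 29 genes lie below 0 (Slc2a1, Eno1 and Ldha not so under median-of-ratios scaling), and the 3 called genes are Ndrg1, Pfkp and Bnip3l.

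Within each group a single library stood apart for these genes. In cKO 3, 17 of the 35 genes were at least 2-fold above the mean of cKO 1 and 2, against 3.01% of all genes, and the median ratio was 1.97 against 0.850 over all genes. In control 1, 13 of the 35 were at least 2-fold above the mean of control 2 and 3, against 4.16% of all genes, and the median ratio was 1.52 against 0.975. Low libraries stood out too: cKO 2 was the lowest of the 6 for 19 of the 35 genes (9.45% of all genes), and control 2 lay below control 1 and 3 for 29 (30.6% of all genes). The summed level of the 14 enzymes of the 10 glycolytic steps was 902, 674 and 1685 FPKM in cKO 1, 2 and 3, against 1437, 998.5 and 1438 FPKM in control 1, 2 and 3. The cKO 3 sum was thus the highest of all, and those of cKO 1 and 2 the lowest. The 12 hypoxia targets summed to 163, 148 and 233 FPKM in cKO 1, 2 and 3, against 577, 205.5 and 326.5 FPKM in control 1, 2 and 3. Here cKO 3 lay between control 2 and control 3, and control 1 was the highest. The spinous marker sum was likewise highest in cKO 3 and the Y-linked sum lowest in control 1. Their part in these patterns was not tested. The libraries were singled out after the values were seen. Without control 1 and cKO 3, 9 of the 35 genes were called lower and 1 higher, where 20.7% of all genes were called lower and 10.1% higher. The 9 were Bnip3l, Hif1a, Hk1, Hk2, Ndrg1, Pfkp, Pgk1, Pkm and Slc16a3, and the higher gene was Epas1.

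**Figure D2:**
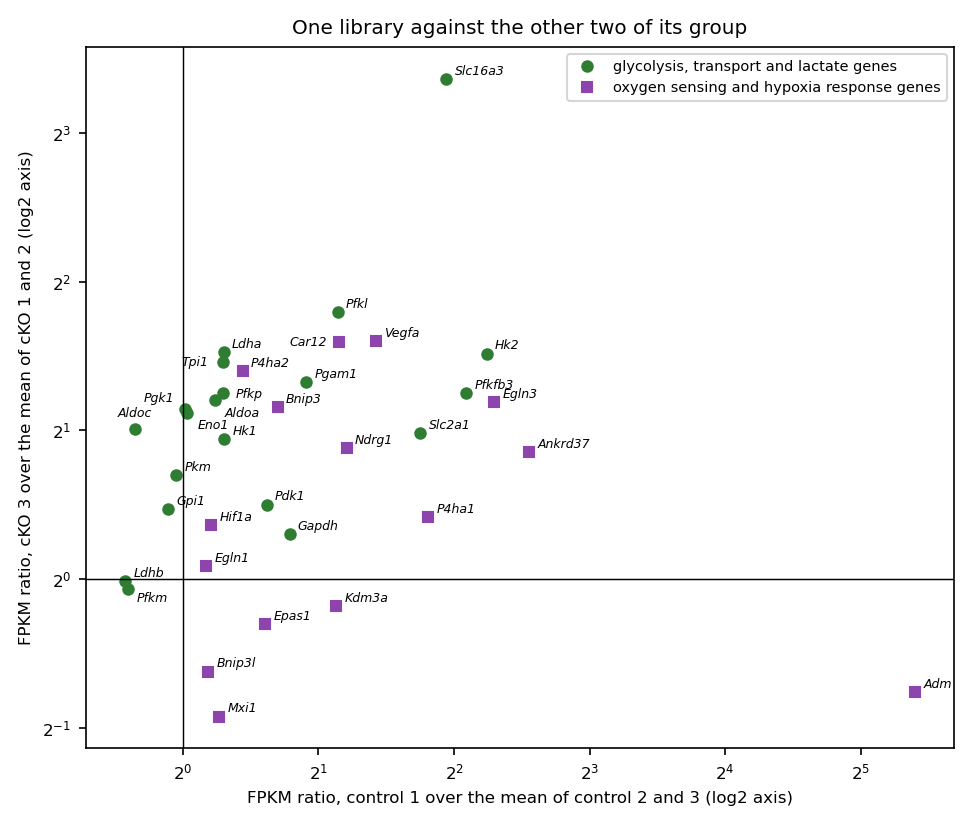
FPKM in cKO 3 over the mean of cKO 1 and 2 (vertical, log2 axis) and in control 1 over the mean of control 2 and 3 (horizontal, log2 axis), a point for each of the 35 tested genes. Glycolysis genes (green circles) lie mostly above 1 on the vertical axis, and most hypoxia genes (purple squares) lie to the right of 1, with Adm farthest at a ratio of 42.2.

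**Figure D3:**
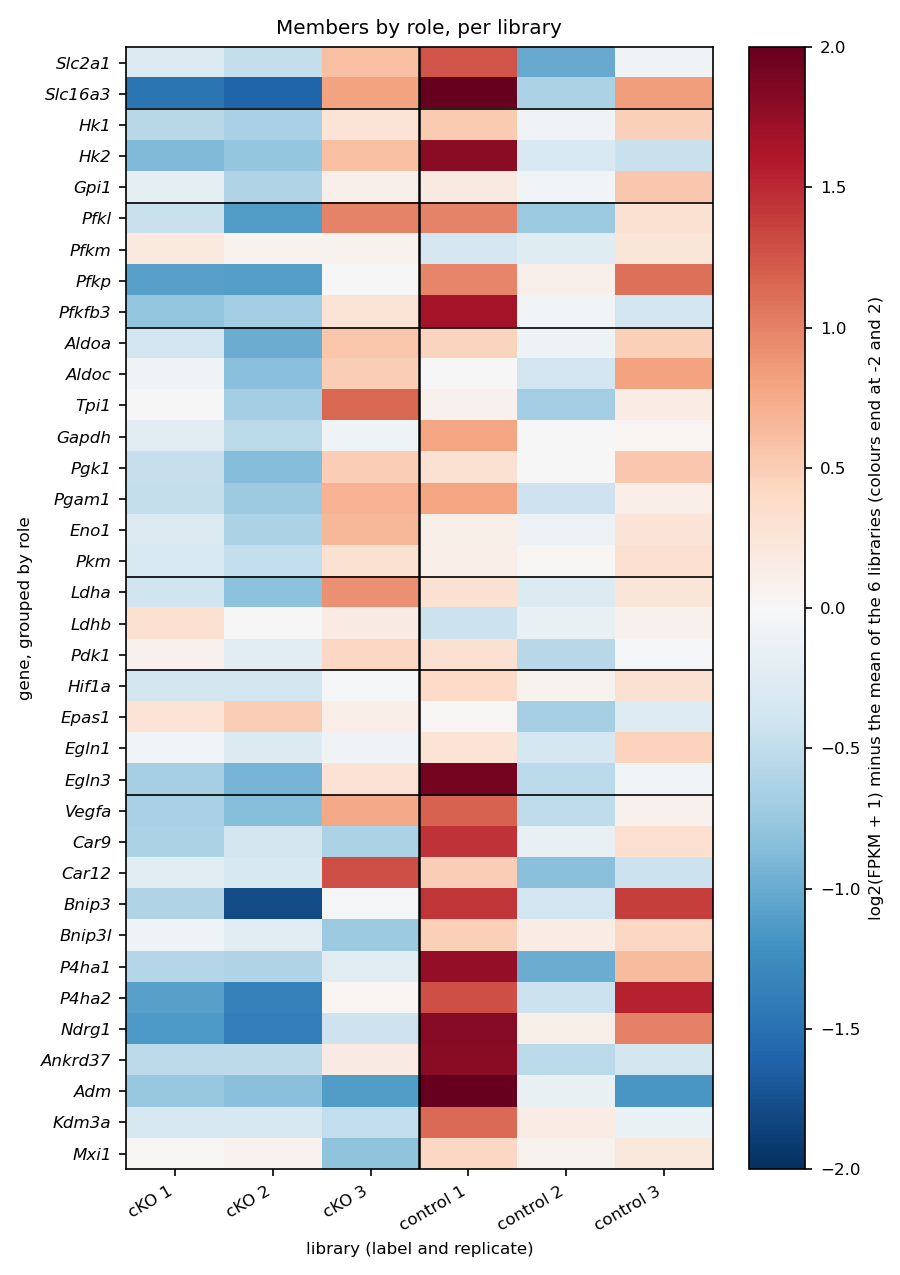
Level of each of the 36 genes in each library as log2(FPKM + 1) minus the mean of the 6 libraries, with genes in order of role and cKO libraries to the left of control libraries. Control 1 is the darkest red column in the lower, hypoxia part, cKO 3 is red through most of the upper, glycolysis part, and cKO 1 and 2 are blue for most genes.

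Carriers come first in the pathway. Slc2a1, the main glucose carrier of keratinocytes, had 99.2, 87.1 and 184 FPKM in cKO 1, 2 and 3, against 292, 59.7 and 114 FPKM in control 1, 2 and 3. Control 1 was the highest and control 2 the lowest of all, and the groups overlapped. The difference of -0.11 had an interval of -1.35 to 1.14, which holds large changes either way, and it was 0.50 without control 1 and 0.094 under median-of-ratios scaling. Slc16a3, which exports lactate, had 0.854, 0.690 and 7.95 FPKM in cKO 1, 2 and 3, against 20.1, 2.32 and 8.14 FPKM in control 1, 2 and 3. The value in cKO 3 was close to that of control 3 and about 10.3 times the mean of cKO 1 and 2. Its difference of -1.50 (SE 0.80, adjusted p = 0.224, limma) was not called. Here and below, Slc2a1, Pfkfb3, Pgk1, Vegfa, Kdm3a, Mxi1, Adm and Ankrd37 are given library by library as genes picked after their values were seen.

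Hexokinases trap glucose in the cell as glucose phosphate. The widely expressed Hk1 had 8.86, 8.20 and 16.4 FPKM in cKO 1, 2 and 3, against 19.7, 12.7 and 19.2 FPKM in control 1, 2 and 3. The inducible Hk2 had 10.1, 11.0 and 30.1 FPKM in cKO 1, 2 and 3, against 70.4, 15.7 and 14.1 FPKM in control 1, 2 and 3. Control 1 was the highest library for both, and cKO 3 reached into the control range for both. Hk1 differed by -0.62 (adjusted p = 0.165, limma) and Hk2 by -0.71 (adjusted p = 0.463, limma). The Hk2 difference was 0.02 without control 1. Gpi1, which isomerises the product, averaged 78.4 ± 18.6 FPKM in cKO libraries and 107 ± 22.9 FPKM in control libraries (SD, n = 3 each), and the groups overlapped.

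Phosphofructokinase commits sugar to glycolysis, and its subunit genes were the site of the glycolysis call. Pfkp, the platelet-type subunit, had 4.89, 4.80 and 11.5 FPKM in cKO 1, 2 and 3, against 23.5, 12.4 and 25.8 FPKM in control 1, 2 and 3. All cKO values lay below all control values, with cKO 3 close under control 2. It fell by 1.45 on the log2 scale (SE 0.37, adjusted p = 0.0333, limma). The call was lost without cKO 1 (adjusted p = 0.0891, limma), cKO 2 (0.0917), control 1 (0.0971) or control 3 (0.110), and under median-of-ratios scaling (0.0685), quantile scaling (0.0692) or no filter (0.0716). Pfkl, the liver-type subunit, had 24.9, 15.2 and 69.5 FPKM in cKO 1, 2 and 3, against 69.5, 20.2 and 42.8 FPKM in control 1, 2 and 3. Its highest values were those of cKO 3 and control 1, and the interval of its difference ran from -1.74 to 0.98. Pfkm, the muscle-type subunit, had 10.6, 9.63 and 9.67 FPKM in cKO 1, 2 and 3, against 7.05, 7.63 and 11.0 FPKM in control 1, 2 and 3. It varied least of the 3 subunits, and its groups overlapped through control 3. Pfkp made up 12.1%, 16.2% and 12.7% of the summed subunit FPKM in cKO 1, 2 and 3, against 23.5%, 30.8% and 32.4% in control 1, 2 and 3. This share, which no common scaling of a library can move, was lower in every cKO library than in any control library, and the mean difference of -15.2 percentage points ranged from -17.9 to -13.5 with each library left out. With 3 against 3 no exact test of a share can go below p = 0.1. Pfkfb3, which makes the sugar bisphosphate that activates phosphofructokinase, had 2.71, 2.96 and 6.75 FPKM in cKO 1, 2 and 3, against 19.2, 5.15 and 3.90 FPKM in control 1, 2 and 3, and was again highest in control 1.

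**Figure D4:**
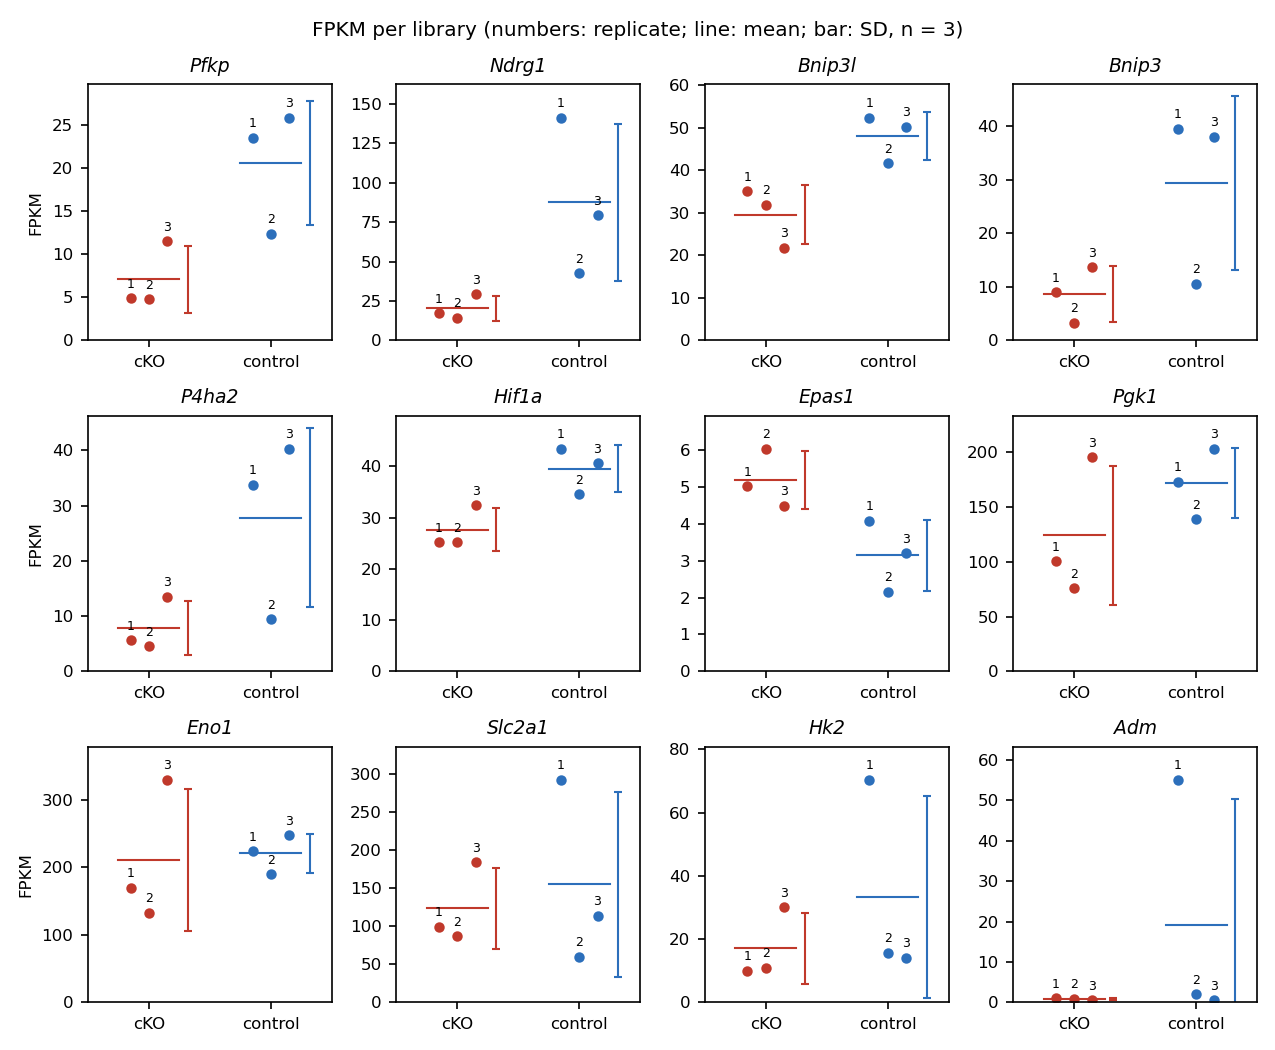
FPKM of 12 genes in each library (numbered points), with cKO to the left of control, the mean as a line and the SD as a bar (n = 3, cut off at 0). For Pfkp, Ndrg1, Bnip3l and Hif1a all cKO points lie below all control points, for Epas1 they lie above, and for Slc2a1, Hk2 and Adm control 1 lies far above control 2 and 3.

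The enzymes from aldolase to pyruvate kinase were among the most abundant members, and none was called by limma. Aldoa, the main aldolase, had 158, 103 and 300.5 FPKM in cKO 1, 2 and 3, against 280, 190.5 and 285 FPKM in control 1, 2 and 3. Eno1, an enolase, had 170, 133 and 330 FPKM in cKO 1, 2 and 3, against 224, 190 and 248 FPKM in control 1, 2 and 3. Pkm, the pyruvate kinase, had 135, 118 and 206 FPKM in cKO 1, 2 and 3, against 183, 170 and 209 FPKM in control 1, 2 and 3. In these 3 genes, which had the highest means of all members, cKO 1 and 2 lay below every control library and cKO 3 lay above control 1 and 2. The differences were -0.54 for Aldoa (interval -1.38 to 0.29), -0.17 for Eno1 (-0.88 to 0.54, and 0.036 under median-of-ratios scaling) and -0.33 for Pkm (-0.81 to 0.15). Pgk1, phosphoglycerate kinase, had the same order with 101, 75.8 and 195 FPKM in cKO 1, 2 and 3, against 173, 139 and 203 FPKM in control 1, 2 and 3. Without cKO 3, 8 of the 35 members were called lower (Aldoa, Bnip3l, Hif1a, Hk1, Ndrg1, Pfkp, Pgk1 and Pkm), against 12.5% of all genes. Pgk1 then had a difference of -0.95 (adjusted p = 0.0188, limma), against -0.56 (adjusted p = 0.255) with it. Aldoc, a minor aldolase, had 8.21, 4.44 and 12.7 FPKM in cKO 1, 2 and 3, against 8.75, 6.43 and 16.0 FPKM in control 1, 2 and 3. It stayed at 4.06% to 4.95% of the 2 aldolases in cKO libraries and 3.03% to 5.30% in control libraries. Tpi1, triose phosphate isomerase, was the exception in direction, with 172 ± 113 FPKM in cKO and 125 ± 36.7 FPKM in control libraries (SD, n = 3 each). That direction rested on cKO 3, since its difference of 0.30 was -0.19 without it. Gapdh was listed at 16.6 to 23.2 FPKM in cKO and 24.8 to 43.2 FPKM in control libraries without overlap (difference -0.56, adjusted p = 0.145, limma), a level far below that of its neighbours in the pathway. Gapdh, Pgk1, Ldha, Ldhb, Tpi1, Pgam1, Aldoa, Eno1 and Bnip3l have named near-identical copies in RefSeq, and how shared reads were counted is not given in the sources used here, so their levels are uncertain. Pgam1, the mutase between Pgk1 and enolase, averaged 51.1 ± 29.7 FPKM in cKO and 62.3 ± 26.1 FPKM in control libraries (SD, n = 3 each).

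At the end of the pathway, Ldha, the pyruvate-reducing form of lactate dehydrogenase, had 65.7, 48.8 and 165 FPKM in cKO 1, 2 and 3, against 108, 72.0 and 103 FPKM in control 1, 2 and 3. Its partner Ldhb, known for the reverse reaction, had 30.7, 24.3 and 27.3 FPKM in cKO 1, 2 and 3, against 17.8, 21.9 and 26.0 FPKM in control 1, 2 and 3. Ldha was highest in cKO 3 and lowest in cKO 2, while Ldhb varied little and was lowest in control 1. Ldhb took 31.9%, 33.3% and 14.2% of the summed dehydrogenase FPKM in cKO 1, 2 and 3, against 14.2%, 23.3% and 20.1% in control 1, 2 and 3, so cKO 3 and control 1 had nearly the same share. Pdk1, which blocks pyruvate dehydrogenase, averaged 17.8 ± 4.12 FPKM in cKO and 15.7 ± 4.88 FPKM in control libraries (SD, n = 3 each) and the groups overlapped.

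The HIF alpha subunits differed in opposite directions. Hif1a had 25.2, 25.2 and 32.4 FPKM in cKO 1, 2 and 3, against 43.4, 34.6 and 40.7 FPKM in control 1, 2 and 3. Epas1, the related subunit known best from endothelium, had 5.01, 6.03 and 4.48 FPKM in cKO 1, 2 and 3, against 4.08, 2.16 and 3.20 FPKM in control 1, 2 and 3. Every cKO value of Hif1a lay below, and every cKO value of Epas1 above, all control values. Neither passed the threshold: Hif1a differed by -0.51 (SE 0.16, adjusted p = 0.0609, limma) and Epas1 by 0.59 (SE 0.24, adjusted p = 0.119, limma). Hif1a was called lower without cKO 3 (adjusted p = 0.0242, limma), and Epas1 was called higher under quantile scaling (difference 0.81, adjusted p = 0.0422, limma). Other alternatives weakened both. The Hif1a difference was -0.31 under median-of-ratios scaling (adjusted p = 0.298, limma) and -0.35 under quantile scaling (0.221), and its adjusted p was 0.177 without cKO 1. For Epas1 the adjusted p was 0.303 without cKO 2 and 0.306 without control 2 (limma). Epas1 made up 16.6%, 19.3% and 12.2% of the summed FPKM of both in cKO 1, 2 and 3, against 8.59%, 5.88% and 7.29% in control 1, 2 and 3. The groups did not overlap, and the mean difference of 8.75 percentage points ranged from 7.11 to 10.7 with each library left out. The endothelial marker sums given above overlapped between the groups, but single markers differed. Pecam1, Tek and Flt1 were lower in every cKO library than in any control library, as were 30.9% of all genes tested, while Kdr, Cdh5 and Emcn overlapped. Pecam1, Tek and Flt1 averaged only 0.638, 0.545 and 0.386 FPKM over all libraries and were too low to be tested. Kdr, the 1 endothelial marker tested, differed by 0.56 (adjusted p = 0.478, limma). The part of endothelial cells in the Epas1 difference was not tested.

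**Figure D5:**
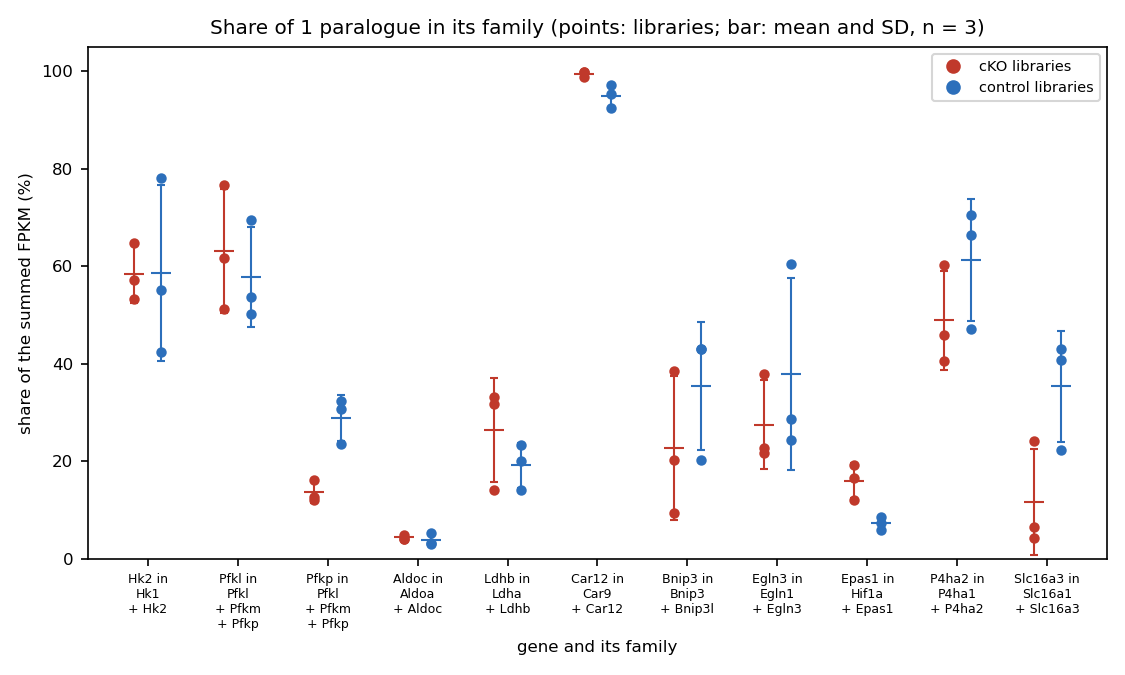
Share of a gene in the summed FPKM of its paralogues, in percent, for 11 genes in 10 families, with cKO libraries (red) to the left of control libraries (blue), a point for each library and bars for mean and SD (n = 3). The groups do not overlap for Pfkp (lower in cKO) and for Epas1 and Car12 (higher in cKO).

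Of the oxygen sensors, Egln1, the main HIF prolyl hydroxylase, had 26.9, 22.9 and 26.5 FPKM in cKO 1, 2 and 3, against 34.0, 21.5 and 38.9 FPKM in control 1, 2 and 3. Egln3, a prolyl hydroxylase that HIF itself induces, had 7.90, 6.36 and 16.3 FPKM in cKO 1, 2 and 3, against 52.0, 8.67 and 12.5 FPKM in control 1, 2 and 3. Egln1 stayed within a narrow range, whereas Egln3 was 4.91 times as high in control 1 as in the mean of control 2 and 3. Neither difference was called by limma (adjusted p = 0.444 for Egln1 and 0.350 for Egln3).

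Among the targets, Ndrg1, a stress gene induced by hypoxia and by differentiation, had the largest difference of the 35 members. It had 17.2, 14.5 and 29.2 FPKM in cKO 1, 2 and 3, against 141, 42.6 and 79.6 FPKM in control 1, 2 and 3. All cKO values lay below all control values although the control libraries spread over more than 3-fold. It fell by 1.96 on the log2 scale (SE 0.43, adjusted p = 0.0183, limma). The call was lost without cKO 2 (adjusted p = 0.0527, limma) or control 3 (0.0613), and under none of the other alternatives. Schwann cells are also known for Ndrg1, and the Schwann marker sums given above were lower in every cKO library than in any control library. Their part in the Ndrg1 difference was not tested.

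The mitophagy receptors Bnip3l and Bnip3 sit on the outer mitochondrial membrane. Bnip3l had 35.1, 31.9 and 21.8 FPKM in cKO 1, 2 and 3, against 52.3, 41.7 and 50.2 FPKM in control 1, 2 and 3. The groups did not overlap, and cKO 3 was the lowest library, unlike for most members. It fell by 0.70 on the log2 scale (SE 0.20, adjusted p = 0.0444, limma). Among the alternatives other than the replicate block, the call was lost without cKO 2 (adjusted p = 0.0805, limma), control 1 (0.110), control 2 (0.0787) or control 3 (0.127), and under median-of-ratios scaling (0.0718), quantile scaling (0.0685), no filter (0.0731) or no mean-variance trend (0.0624). Bnip3 had 8.94, 3.33 and 13.7 FPKM in cKO 1, 2 and 3, against 39.4, 10.6 and 38.0 FPKM in control 1, 2 and 3. Only control 2 lay inside the cKO range. Bnip3 differed by -1.62 (SE 0.58, adjusted p = 0.0894, limma), and without control 2 by -2.21 (adjusted p = 0.0426). The Bnip3 difference was nearer to none without cKO 2 (-1.12, adjusted p = 0.209, limma), control 1 (-1.31, 0.221) or control 3 (-1.33, 0.237).

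The collagen prolyl hydroxylase subunits followed a like order. P4ha2 had 5.69, 4.52 and 13.5 FPKM in cKO 1, 2 and 3, against 33.8, 9.47 and 40.3 FPKM in control 1, 2 and 3. P4ha1 had 6.69, 6.61 and 8.89 FPKM in cKO 1, 2 and 3, against 37.9, 4.78 and 16.9 FPKM in control 1, 2 and 3. In both genes control 2 lay low, inside the cKO range for P4ha2 and below it for P4ha1. P4ha2 differed by -1.60 (SE 0.56, adjusted p = 0.0819, limma) and P4ha1 by -0.93 (SE 0.60, adjusted p = 0.303, limma). Without control 2, 5 of the 35 members were called lower (Bnip3, Ndrg1, P4ha1, P4ha2 and Pfkp), against 6.14% of all genes. P4ha2 then differed by -2.22 (adjusted p = 0.0284, limma), but by -1.32 without cKO 2 (0.191) and by -1.23 without control 3 (0.228). The summed markers of fibroblasts, which use these enzymes to make collagen, overlapped between the groups. Of the 6 markers, 5 had a difference above 0 and 1 below, and 0 were called by limma. Their part in the P4ha1 and P4ha2 differences was not tested.

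Of the secreted and surface targets, Adm, Vegfa and Car9 were highest in control 1, and Car12 was highest in cKO 3. Adm, the vessel-dilating peptide adrenomedullin, had 1.02, 0.927 and 0.577 FPKM in cKO 1, 2 and 3, against 55.0, 2.08 and 0.525 FPKM in control 1, 2 and 3. It was near 1 FPKM or under in all libraries but control 1 and 2, and its difference of -1.81 had an interval of -4.49 to 0.88. Vegfa, the main vessel growth factor, had 10.05, 8.57 and 28.2 FPKM in cKO 1, 2 and 3, against 38.4, 11.2 and 17.4 FPKM in control 1, 2 and 3. Control 1 and cKO 3 were thus its highest libraries. Car9, a surface carbonic anhydrase that is a classical hypoxia marker, was too low to be tested, with 4, 20 and 4 fragments in cKO 1, 2 and 3, against 238, 34 and 77 fragments in control 1, 2 and 3. Its FPKM of 0.0541, 0.267 and 0.0504 in cKO 1, 2 and 3 lay below the 3.42, 0.467 and 1.07 in control 1, 2 and 3. The related Car12 had 25.2, 23.3 and 73.4 FPKM in cKO 1, 2 and 3, against 41.6, 16.0 and 21.5 FPKM in control 1, 2 and 3. Its difference of 0.51 rested on cKO 3 and was -0.0062 without it. Car12 took 99.8%, 98.9% and 99.9% of the summed FPKM of both anhydrases in cKO 1, 2 and 3, against 92.4%, 97.2% and 95.3% in control 1, 2 and 3.

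Of the nuclear targets, Kdm3a, a demethylase of histone H3 lysine 9, had 32.7, 32.8 and 28.9 FPKM in cKO 1, 2 and 3, against 91.2, 45.8 and 37.6 FPKM in control 1, 2 and 3. Mxi1, an antagonist of MYC, had 17.0, 17.6 and 9.13 FPKM in cKO 1, 2 and 3, against 22.6, 17.7 and 19.8 FPKM in control 1, 2 and 3. Both lay below the control range in every cKO library, though cKO 1 and 2 came close to control 2 for Mxi1. Neither was called by limma, with differences of -0.76 for Kdm3a (SE 0.30, adjusted p = 0.112) and -0.48 for Mxi1 (SE 0.25, adjusted p = 0.221). Ankrd37, an ankyrin repeat protein, had 3.17, 3.16 and 5.73 FPKM in cKO 1, 2 and 3, against 19.9, 3.12 and 3.67 FPKM in control 1, 2 and 3, so that its mean difference of -0.60 was 0.16 without control 1.

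Other genes of the same pathways were counted from lists chosen by name. Of 88 tested genes in 6 lists, 4 were called higher (4.55%, against 5.87% of all genes) and 13 lower (14.8%, against 13.6% of all genes; limma). These shares were near the background, and the counts of single lists below describe those lists only. The 8 genes of the pentose phosphate pathway, which branches from glycolysis to make NADPH and ribose, had a median of 0.28, against -0.17 over all genes, with 2 called higher and 0 lower, also 0 at an unadjusted p under 0.05 and by limma-voom. G6pdx, its entry enzyme, had 31.7, 31.3 and 42.6 FPKM in cKO 1, 2 and 3, against 18.2, 16.7 and 17.5 FPKM in control 1, 2 and 3, and rose by 0.96 on the log2 scale (SE 0.16, adjusted p = 0.00748, limma). All cKO libraries lay well above the narrow control range. Tkt, transketolase, rose by 0.48 (adjusted p = 0.0396, limma), but lost the call with any single library left out (adjusted p of 0.0521 to 0.115). Of the 7 tested sugar and lactate carriers, 1 was called higher, with a list median of -0.08. This was Slc16a6, a monocarboxylate carrier, at 14.3, 15.3 and 12.2 FPKM in cKO 1, 2 and 3, against 3.65, 4.25 and 4.99 FPKM in control 1, 2 and 3 (difference 1.50, SE 0.18, adjusted p = 0.00247, limma). The difference of the lactate exporter Slc16a3 had the opposite sign and was not called.

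Of the 14 other glycolytic isoenzymes and regulators, 1 was called higher and 3 lower, with a median of -0.63. Pgm2, a phosphopentomutase and phosphoglucomutase, fell by 0.97 on the log2 scale (adjusted p = 0.00535, limma) and kept its call in all 15 alternatives. Eno2, an enolase known from neurons, fell by 1.21 (adjusted p = 0.0430, limma). Bpgm, known from red cells, fell by 0.77 (adjusted p = 0.0403, limma), while the fructose kinase Khk rose by 0.62 (adjusted p = 0.0467, limma). Eno2 had 2.54, 2.22 and 0.874 FPKM in cKO 1, 2 and 3, against 3.42, 5.97 and 7.51 FPKM in control 1, 2 and 3. Khk, Bpgm and Eno2 each lost the call without cKO 1 (adjusted p = 0.103, 0.0966 and 0.0585, limma), cKO 3 (0.0725, 0.0595 and 0.0758), control 2 (0.0867, 0.0722 and 0.128) or control 3 (0.118, 0.125 and 0.133). Khk and Bpgm also lost it without control 1 (0.0944 and 0.0983), and Khk and Eno2 without cKO 2 (0.125 and 0.0778). All 3 lost it with no filter (0.0653, 0.0669 and 0.0861), by limma-voom (0.0907, 0.0607 and 0.0542) and with the replicate block (0.119, 0.104 and 0.104). Bpgm and Eno2 also lost it under median-of-ratios scaling (0.0651 and 0.0543), Bpgm under quantile scaling (0.0675), Eno2 with pseudocount 0.1 (0.0531), and Khk and Bpgm without control 1 and cKO 3 together (0.0554 and 0.0620). Of 13 genes of pyruvate entry into mitochondria, 2 were called lower, with a median of -0.36. Pdha1, a subunit of pyruvate dehydrogenase, had 58.1, 59.1 and 51.7 FPKM in cKO 1, 2 and 3, against 90.0, 89.4 and 78.9 FPKM in control 1, 2 and 3 (difference -0.60, SE 0.12, adjusted p = 0.0146, limma), and lost the call without control 2 (0.0594) or under median-of-ratios scaling (0.0527). Pdk4, which inhibits that complex, was the other, with 0.836, 0.510 and 0.225 FPKM in cKO 1, 2 and 3, against 1.43, 1.68 and 2.75 FPKM in control 1, 2 and 3 (adjusted p = 0.0458, limma). It passed the filter only through the control group, where it was high, and lost the call with any single library left out (0.0536 to 0.131).

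Of 13 genes of HIF control, 2 were called lower, with a median of -0.27. Arnt2, a partner of the HIF alpha subunits, had 2.77, 2.83 and 0.676 FPKM in cKO 1, 2 and 3, against 11.6, 13.3 and 9.88 FPKM in control 1, 2 and 3 (difference -2.12, SE 0.34, adjusted p = 0.00609, limma). Cited2, which competes with HIF for its coactivators, had 9.82, 9.09 and 5.40 FPKM in cKO 1, 2 and 3, against 22.2, 20.4 and 19.1 FPKM in control 1, 2 and 3 (difference -1.28, SE 0.22, adjusted p = 0.00866, limma). For both genes cKO 3 was the lowest library and the groups lay far apart. Of 33 other hypoxia genes, 6 were called lower, with a median of -0.42. Bhlhe41 and Bhlhe40, clock-linked repressors, fell by 3.27 (adjusted p = 0.00332, limma) and 2.00 (adjusted p = 0.0128, limma) on the log2 scale. Bhlhe41 had 3.43, 3.50 and 0.825 FPKM in cKO 1, 2 and 3, against 52.2, 21.8 and 25.7 FPKM in control 1, 2 and 3. Wsb1, a substrate receptor of a ubiquitin ligase, fell by 0.66 (adjusted p = 0.0119, limma), and Plod1, a collagen lysyl hydroxylase, by 1.68 (adjusted p = 0.0131, limma). Plod1 lost the call without control 3 (adjusted p = 0.0525, limma). The calls of Arnt2, Cited2, Bhlhe41, Bhlhe40 and Wsb1 held in all 15 alternatives. Pyruvate entry, HIF control and the other hypoxia genes had 0 called higher by limma, 0 at an unadjusted p under 0.05 and 0 by limma-voom. Carriers had 0 called lower by limma, 1 at an unadjusted p under 0.05 and 0 by limma-voom. The melanocyte and Schwann marker sums were likewise lower in every cKO library than in any control library, and their part was not tested.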

How the data were processed

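RNA-seq libraries (3 labelled cKO, 3 labelled control) were grouped by their labels. The authors deposited 1 table of FPKM values for 17025 genes, per the file headers. The tools fastp, HISAT2 and HTSeq and the build GRCm39 are named, without versions, per the submitters' processing notes. Not given in the sources used here are the annotation release, any gene filter and whether strand was used. Whole fragments were recovered from the FPKM steps for 17024 genes (relative tolerance 1e-09), with totals of 33622416, 34043672 and 36027550 in cKO 1, 2 and 3 and 31578875, 33053422 and 32792756 in control 1, 2 and 3.

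The 11603 genes averaging 1 FPKM or more went into limma (version 3.58.1, R 4.3.3) as log2(FPKM + 1). The model held group alone and a mean-variance trend, and Benjamini-Hochberg values under 0.05 were called; the script was tested on simulated data. Intervals are 95%. Values per library were given for called members, Hif1a, Epas1, paralogue pairs and the 3 highest members, with a few others chosen after their values were seen; of other lists, up to 4 called genes with the smallest adjusted p per direction were named. The members and lists were chosen with earlier results of these data known. The 15 alternatives were pseudocount 0.1, other filters and scalings, no mean-variance trend, the replicate number as a block, dropping each library in turn and, added after seeing the data, control 1 and cKO 3 left out together and limma-voom on the recovered fragments. Sequences came from RefSeq (GRCm38.p6), a build other than the authors', and were read in Python 3.11.15.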

Additional observations from a re-analysis of the deposited data

How the results depend on the processing

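The number of members called lower (3) was 1 with no filter, 1 with median-of-ratios scaling and 1 with quantile scaling, 9 with control 1 and cKO 3 both left out, and 0 to 8 with a single library left out (0 without cKO 2 or control 3). The number called higher (0) was 1 with quantile scaling and 1 with both libraries left out. Over all genes, 681 were called higher and 1576 lower; with quantile scaling 1028 were higher, with both libraries left out 1174 higher and 2402 lower, and with a single library left out 390 to 715 higher and 712 to 1448 lower. The 4 called higher among other pathway genes became 2 with any library left out, and the 13 called lower became 8 with no filter and 8 with median-of-ratios scaling. The Ash2l difference ranged from 0.67 to 0.94 with each library left out. Pseudocount 0.1, the filter at 5 FPKM and limma-voom left all member calls on the same side. The cause of these changes was not tested.

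Over all genes tested, deviations of same-numbered libraries from their group means correlated at -0.307, 0.0798 and -0.261. The 3 deviations of a group sum to 0, so these values cannot decide whether replicate numbers pair the libraries. With a replicate block, 432 genes were called higher and 893 lower, the members called lower were 4 (Bnip3, Ndrg1, P4ha2 and Pfkp), other pathway genes called higher were 2, and Ash2l differed by 0.81 (adjusted p = 0.0613, limma). Calls absent under the block included those of Bnip3l (adjusted p = 0.0810, limma), Khk (0.119), Bpgm (0.104), Eno2 (0.104), Pdk4 (0.127) and Tkt (0.112).

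Members that changed sign were not called with all libraries in the fit. Hk2, which changed sign without control 1, was called lower with control 1 and cKO 3 both left out (difference -0.46, adjusted p = 0.0405, limma). Slc2a1 was 0.094 with median-of-ratios scaling, 0.016 with quantile scaling, 0.17 with both libraries left out and -0.64 to 0.50 with each library left out. Eno1 was 0.036 and Ldha 0.0031 with median-of-ratios scaling, and Tpi1 -0.075 with both left out. With each library left out, Hk2 ranged from -1.19 to 0.016, Pfkl from -0.98 to 0.084, Aldoc from -0.60 to 0.069, Tpi1 from -0.19 to 0.72, Eno1 from -0.54 to 0.11, Ldha from -0.71 to 0.16, Pdk1 from -0.046 to 0.39, Car12 from -0.0062 to 0.89 and Ankrd37 from -1.02 to 0.16. At 3 libraries per group, genes whose libraries spread this widely within a group leave intervals that hold large changes either way.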
